A study of Homo sapiens with 6 samples.

Results

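The MYC, MAX and MXD network was followed at RNA level in MDA-MB-231, an established cell line representative of triple-negative breast cancer (TNBC), after silencing of Sam68. The members were 10 genes chosen by symbol: MYC and MYCL as activators, MAX and MLX as dimer partners, and MXD1, MXI1, MXD3, MXD4, MNT and MGA as antagonists. All 10 were found among the 74852 loci of the deposited table, and all 10 passed the minimum mean of 10 that left 18849 loci for testing. The control group (si-CTRL, 3 libraries) received a control siRNA pool and the silenced group (si-SAM68, 3 libraries) a SAM68-directed pool of 4 duplexes, and per the labels cells were transfected 2 times and collected 24 h after the last transfection. The methods of the study state a different harvest time. All 6 libraries came from the same cell line and held polyadenylated RNA, and both groups went through the same number of transfections. Whether replicates were separate cultures is not given in the sources used here, so that p-values measure only the spread between these libraries. In RNA of a whole culture, fewer cells of a kind and less RNA per cell cannot be told apart.

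MYC is a transcription factor that binds DNA as a dimer with MAX, at E-boxes with the core CACGTG, and recruits coactivators that acetylate histones and release paused RNA polymerase. MXD proteins, MNT and MGA compete for MAX at the same boxes and recruit corepressors, SIN3 and NCOR complexes for MXD proteins and MNT and a variant Polycomb complex (PRC1.6) for MGA, so that the balance of the 2 sides sets the output of shared target genes. MLX is a second dimer partner, which pairs with some MXD proteins, with MNT and with the glucose-responsive factors MLXIP and MLXIPL. MYC is amplified or highly expressed in many TNBC and supports growth, ribosome production and nucleotide synthesis.

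The siRNAs of the SAM68 pool are shown because their seeds, the guide bases that pair first with a target, decide which other transcripts hold a match. Each is the sense strand, 5′ to 3′, and capitals mark the 7 bases that pair with guide positions 2 to 8.
siRNA 1: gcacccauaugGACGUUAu
siRNA 2: gaaagagcgagUGCUGAUa
siRNA 3: uaugauggaugAUAUCUGu
siRNA 4: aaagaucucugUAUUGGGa
All 4 matched KHDRBS1, the gene of Sam68, over their 19 bases. Among the members, the longest 3'UTR in GENCODE 29 held 1 match to siRNA 2 in each of MAX, MXD1 and MXI1 and 1 match to siRNA 3 in MLX. MYC, MYCL, MXD3, MXD4, MNT and MGA held none. The 3'UTRs searched ran from 476 bases in MYC to 5801 in MGA, and the share of all genes with a match was not counted. A match is a description of the letters and its part in any value below was not tested.

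E-boxes in the promoters of the members are shown because the network can act on its own genes. A promoter here is the 250 bases before and 50 bases after a start site in RefSeq (GRCh38.p14), and 9 of the 10 members matched an entry of this table, all but MYC. The motif CACGTG reads the same on both strands. It was present in 3 of these 9 members (33.3%), against 12.3% of 11113 genes at tested loci and 8.77% of 27305 RefSeq genes. Windows of 26 bases with the box in capitals follow, each on the strand of its gene.
MLX: gggcgcgggtCACGTGggcacgccac
MNT: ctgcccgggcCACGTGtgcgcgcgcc
MXD4: gccgggccacCACGTGctgttgctaa
KHDRBS1: agcgccgagtCACGTGgaaaacgaaa
The MLX window is chr17:42567040-42567065 on the plus strand, with the box starting at position -50 from the start site. The MNT window is chr17:2401238-2401263 on the minus strand, and its box starts at -193. The MXD4 window is chr4:2262332-2262357 on the minus strand, and its box starts at -238. The KHDRBS1 window is chr1:32013633-32013658 on the plus strand, and it holds 1 of the 2 boxes of that promoter, at -225. MYCL, MAX, MXD1, MXI1, MXD3 and MGA had no CACGTG in these windows, which says nothing of sites elsewhere.

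Values below are normalized read counts, which the authors obtained by dividing the reads on a locus by the size factor of the library. Fold changes are si-SAM68 against si-CTRL on the scale log2(count + 1), and a gene was called at an adjusted p under 0.05 (limma, Benjamini-Hochberg over all tested loci, two-sided). KHDRBS1, the silenced gene, was at 15660, 14483 and 14737 in the si-CTRL libraries and at 583.3, 601.6 and 670.2 in the si-SAM68 libraries. It fell by 4.60 on the log2 scale (SE 0.0829, limma adjusted p = 2.13e-09), so the targeted gene matched the label of every library. Libraries held 52625492 to 82568487 reads, si-CTRL replicate 1 being the smallest. The ribosomal RNA locus took 15.1% of the reads of si-SAM68 replicate 2 and 1.83% to 3.17% of the others. Si-CTRL replicate 1 was the highest of the 6 libraries at 27.5% of tested loci, whereas each of the others was highest at 11.4% to 19.1%.

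The markers of the line were checked as well. The summed count of the 5 markers of MDA-MB-231 was 262158 to 330132 in si-CTRL and 263772 to 285331 in si-SAM68. Within this list 1 of 5 was called (20%, beside 10.7% of all tested loci). This was ZEB1, a repressor of epithelial genes, which fell by 0.63 on the log2 scale (limma adjusted p = 0.0118). VIM (-0.14), CD44 (0.17), EGFR (0.11) and SPARC (0.01) were not called. PGR was at 0 in all libraries, CDH1 did not exceed 4.6, EPCAM 9.2 and ESR1 15.2, whereas ERBB2 (2413 to 3447) and GATA3 (330.8 to 542.4) were not absent. Of the markers of other cell types, CD3E did not exceed 0.9, DCN 3.7, PTPRC 13.6, PECAM1 16.2 and VWF 17.5. COL1A1, by contrast, was at 138281 to 181387 and PDGFRB at 592.0 to 775.8. The locus of CD68, at 107000 to 117455, joins EIF4A1, a translation factor, and SENP3, so that it does not measure CD68. COL1A1 and this joined locus made up nearly all of the sum of that list, 264325 to 295315 in si-CTRL and 247064 to 285289 in si-SAM68. ACTA2, a smooth muscle actin, fell by 0.70 on the log2 scale (limma adjusted p = 0.0183). Its adjusted p was 0.0559, 0.0767 and 0.0571 without si-SAM68 replicate 1, 2 or 3, and that of ZEB1 was 0.0517 without si-SAM68 replicate 1 (limma). A list of 16 RNAs taken to lack a poly(A) tail was followed too. All 13 tested had a fold change above 0 (median 0.82 on the log2 scale). In most of them si-SAM68 replicate 2 was far above every other library. Of the 13 tested, 2 rose (15.4% called, beside 10.7% of all tested loci). They were the histone genes HIST1H1C, by 0.64, and HIST1H2BK, by 0.33 (limma adjusted p = 0.00929 and 0.039). These 2 were at 1561 to 3191 and at 3145 to 4578 over the 6 libraries, and whether their transcripts carry a tail was not tested. In the list 1 was called when any single library other than si-CTRL replicate 1 was left out. RMRP, the RNA of a ribonuclease, was at 4694 in si-SAM68 replicate 2 and at 105.0 to 328.9 elsewhere. HIST1H4C was at 437.9 in that library and at 40.2 to 48.4 elsewhere. The part of these RNAs in the values of the members was not tested.

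No member of the network was called at an adjusted p under 0.05 (0 of 10 members, limma), beside 10.7% of all tested loci (6.23% lower and 4.47% higher). At an unadjusted p under 0.05 there were 2 members, MYC and MXD1, beside 27% of tested loci. No member passed the thresholds of the study, an unadjusted p of at most 0.05 with a fold change of at least 1.5. By limma 7.67% of tested loci (1445) passed them. The study, with its own analysis, reported fewer genes at these thresholds. The count here is of loci with a mean of at least 10, with or without a symbol, and was 989 at a minimum mean of 50. It is therefore not in the unit of the study. On the recovered reads edgeR called 0 members, beside 2026 of all tested loci. DESeq2 called 1, MYC, beside 2811 of all tested loci, and gave no adjusted p for 2574 loci. The fold change was below 0 in 8 members and above 0 in 2, MXD4 and MGA, beside 49.1% of tested loci below 0. The median over the members was -0.10 on the log2 scale, against 0.005 over all tested loci.

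**Figure D1:**
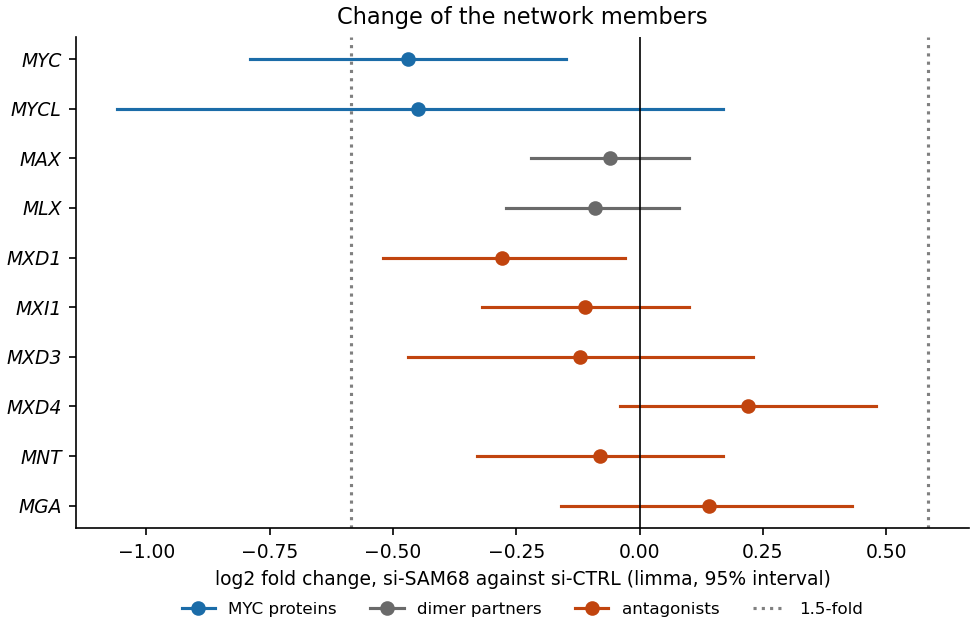
Log2 fold change of each member, si-SAM68 against si-CTRL, from limma with 3 libraries per group; points are estimates, bars 95% intervals, colours the roles, and dotted lines a fold change of 1.5. Only the intervals of MYC (-0.79 to -0.15) and MXD1 (-0.52 to -0.03) leave out 0, before adjustment over loci.

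MYC, on chromosome 8, was lower in every si-SAM68 library than in any si-CTRL library. Its normalized read count was 7621, 5055 and 5034 in si-CTRL and 4192, 4272 and 4080 in si-SAM68. A single library, si-CTRL replicate 1, was high, and the lowest si-CTRL value was 1.18 times the highest si-SAM68 value. Mean counts were 5903 ± 1488 (SD, n = 3) and 4181 ± 96.7 (SD, n = 3), a log2 fold change of -0.47 (SE 0.144, 95% interval -0.79 to -0.15). The unadjusted p was 0.00856 and the adjusted p 0.0654 (limma), which missed the threshold. By p MYC ranked 2466 of 18849 tested loci. The exact two-sided permutation test over the libraries gave p = 0.1, the smallest that 3 against 3 can give. Groups that do not overlap, with si-SAM68 lower, were found at 17.3% of tested loci and in this 1 member.

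The value of MYC rested in part on si-CTRL replicate 1, which was at 1.51 times the mean of the other si-CTRL libraries. The coefficient of variation of MYC was 25.2% within si-CTRL and 2.31% within si-SAM68, with 3652 to 6098 reads behind each value and a counting error of 1.28% to 1.65%. Of 7991 loci whose mean reached 1000, 5.68% had a standard error as large as that of MYC. The si-SAM68 mean was -29.2% against all si-CTRL libraries and -17.1% against si-CTRL replicates 2 and 3, whose mean was 5044. Without si-CTRL replicate 1 the log2 fold change was -0.27 with an adjusted p of 0.0137 (limma), so that the difference was smaller but the gene was called. In that setting 2834 of all tested loci were called, against 2017 with all 6 libraries. MYC was also called without si-CTRL replicate 2 (-0.57, limma adjusted p = 0.0452) and by DESeq2 (-0.50, adjusted p = 0.00699). It was called in no other of the 18 alternatives. Without si-SAM68 replicate 2, the library rich in ribosomal RNA, the log2 fold change was -0.49 (limma adjusted p = 0.143). Over all alternatives the adjusted p ran from 0.00699 to 0.209, and the direction was lower in each of them.

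MYCL, the paralog of MYC first found in lung cancer (hg19 chr1:40361096-40367687), was the least abundant member. It was at 80.0, 65.9 and 76.1 in si-CTRL and at 60.4, 74.5 and 34.6 in si-SAM68. The groups overlapped, and si-SAM68 replicate 3 was the lowest library. Only 31 to 81 reads stood behind these values, and the 95% Poisson interval of that lowest library (23.5 to 49.2, counting error only) lay under those of the 3 si-CTRL libraries, the lowest of which began at 51.1. That interval also lay under the one of si-SAM68 replicate 2 (59.2 to 92.6), a library of its own group. The log2 fold change was -0.45 (SE 0.275, 95% interval -1.06 to 0.17, limma adjusted p = 0.33), and -0.13 without si-SAM68 replicate 3. MYCN, the neural paralog outside the 10 members, had 0 reads in all 6 libraries.

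**Figure D2:**
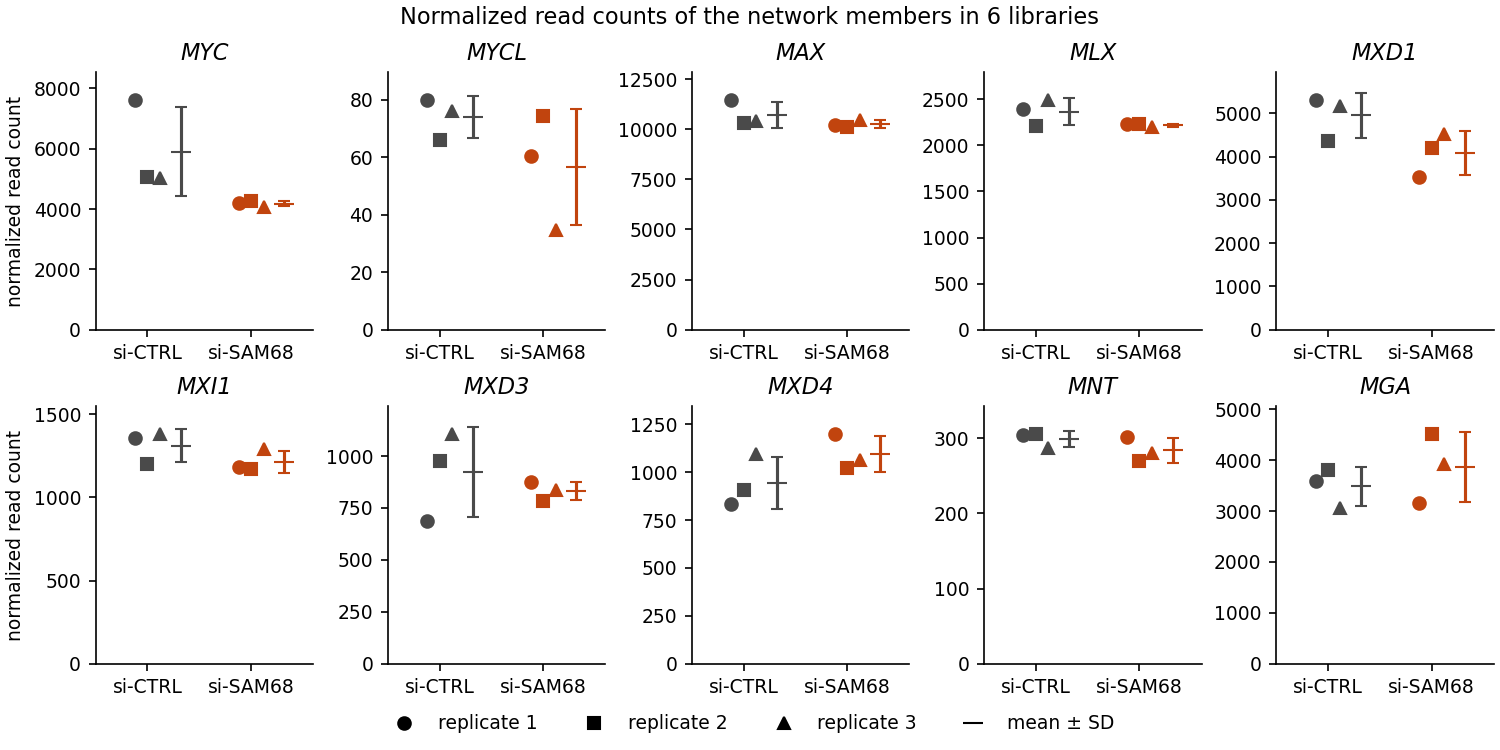
Normalized read count of each member in the 6 libraries, with a linear axis from 0 in each panel; symbols are replicates and bars mean ± SD (n = 3). MYC is the only panel in which the si-CTRL and si-SAM68 libraries do not overlap, and its si-CTRL replicate 1 (7621) stands above the others.

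The dimer partners varied little, the highest library being 1.13 times the lowest for each. MAX, the obligate partner of MYC and of most antagonists (hg19 chr14:65472819-65569413), was at 11472, 10313 and 10406 in si-CTRL and 10218, 10120 and 10477 in si-SAM68. The groups overlapped, with si-CTRL replicate 1 highest. The log2 fold change was -0.06 (SE 0.0731, 95% interval -0.22 to 0.10, limma adjusted p = 0.631). MLX (hg19 chr17:40719078-40725257) was at 2398, 2210 and 2494 in si-CTRL and at 2228, 2228 and 2197 in si-SAM68. Its si-SAM68 libraries lay within or just under the range of si-CTRL, with a log2 fold change of -0.09 (SE 0.0793, 95% interval -0.27 to 0.08, limma adjusted p = 0.492). Both intervals stayed inside a fold change of 1.5 in either direction, and both genes carry a seed match of the pool.

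MLXIP and MLXIPL dimerize with MLX and not with MAX, and were measured beside it. MLXIP, also called MondoA, was at 1309, 772.9 and 719.6 in si-CTRL and 797.9, 860.1 and 725.0 in si-SAM68, again with a single high library, si-CTRL replicate 1 (log2 fold change -0.18, limma adjusted p = 0.594). MLXIPL, the carbohydrate response factor ChREBP, was low, at 21.3 to 35.2 over the 6 libraries (log2 fold change 0.03, limma adjusted p = 0.963).

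Among the antagonists, 4 of 6 had a fold change below 0 and 2 above 0, and none was called. MXD1, which is induced when cells differentiate and replaces MYC on MAX (hg19 chr2:70142173-70170074), was at 5311, 4365 and 5175 in si-CTRL and 3539, 4202 and 4532 in si-SAM68. The groups overlapped, because si-CTRL replicate 2 was under si-SAM68 replicate 3, and si-SAM68 replicate 1 was the lowest. The log2 fold change was -0.28 (SE 0.111, 95% interval -0.52 to -0.03), with an unadjusted p of 0.0316 and an adjusted p of 0.142 (limma). It was between -0.37 and -0.18 when single libraries were left out, the smallest without si-SAM68 replicate 1.

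MXI1, also called MXD2 (hg19 chr10:111967356-112047123), was at 1356, 1199 and 1383 in si-CTRL and 1182, 1169 and 1291 in si-SAM68. Its groups overlapped and the log2 fold change was -0.11 (SE 0.0928, 95% interval -0.32 to 0.10, limma adjusted p = 0.479). MXD3, the antagonist associated with proliferating cells (hg19 chr5:176732501-176739292), was at 684.9, 974.4 and 1107 in si-CTRL and 874.4, 785.6 and 835.6 in si-SAM68. Here si-CTRL replicate 1 was the lowest library, the opposite of its place for MYC. The log2 fold change was -0.12 (SE 0.158, limma adjusted p = 0.666), but -0.32 with a call without si-CTRL replicate 1 (limma adjusted p = 0.0406) and 0.02 without si-CTRL replicate 3.

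MXD4 was the antagonist with the largest positive value. Its locus (hg19 chr4:2249160-2263823) joins the microRNA gene MIR4800, whose reads cannot be told apart from those of MXD4. It was at 832.4, 906.6 and 1093 in si-CTRL and at 1201, 1023 and 1063 in si-SAM68. The groups overlapped only through si-CTRL replicate 3, and si-CTRL replicate 1 was again the lowest. The log2 fold change was 0.22 (SE 0.118, 95% interval -0.04 to 0.48, limma adjusted p = 0.261), and 0.13 without si-CTRL replicate 1.

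MNT, the constitutive antagonist of MYC (hg19 chr17:2287355-2304354), was at 305.0, 306.1 and 287.1 in si-CTRL and 302.2, 269.5 and 280.4 in si-SAM68, with overlapping groups. Its log2 fold change was -0.08 (SE 0.112, 95% interval -0.33 to 0.17, limma adjusted p = 0.705). MGA, a very large protein that carries its own T-box and recruits Polycomb proteins (hg19 chr15:41913753-42062141), was at 3585, 3813 and 3068 in si-CTRL and 3152, 4518 and 3918 in si-SAM68. The highest library was si-SAM68 replicate 2, the one rich in ribosomal RNA, and without it the log2 fold change went from 0.14 (SE 0.132, limma adjusted p = 0.544) to 0.02. With libraries of the same replicate number taken as a block, 0 members were called and MYC had an adjusted p of 0.0597 (limma). The labels number the replicates within each group only.

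Levels were then compared between members after division by the length of the merged exons in GENCODE 29, as normalized read counts per kb. In si-CTRL, MAX was the highest at 2422 ± 145 (SD, n = 3), followed by MYC at 1967 ± 496. MXD1 came next at 779 ± 80.5 and was the most abundant antagonist, MLX was at 556 ± 33.9 and MXI1 at 285 ± 21.6. These members were set apart from MGA (198 ± 21.6), MXD3 (179 ± 41.8) and MXD4 (134 ± 19), and the lowest were MNT (34.3 ± 1.22) and MYCL (14.6 ± 1.44). In the si-CTRL libraries the ranges of MAX and MYC, of MGA and MXD3 and of MXD3 and MXD4 overlapped, and the other neighbours in this order did not.

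The order by mean was identical in si-SAM68, with MAX at 2319 ± 41.7, MYC at 1393 ± 32.2 and MXD1 at 644 ± 79.6 (SD, n = 3). There the ranges of MAX and MYC no longer overlapped. MXI1 (264 ± 14.6) overlapped MGA (219 ± 38.8), and MXD3 (161 ± 8.64) overlapped MXD4 (155 ± 13.2). MLX was at 521 ± 4.19, MNT at 32.5 ± 1.91 and MYCL at 11.2 ± 4. Lengths of merged exons take no account of which transcripts the cells used.

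**Figure D3:**
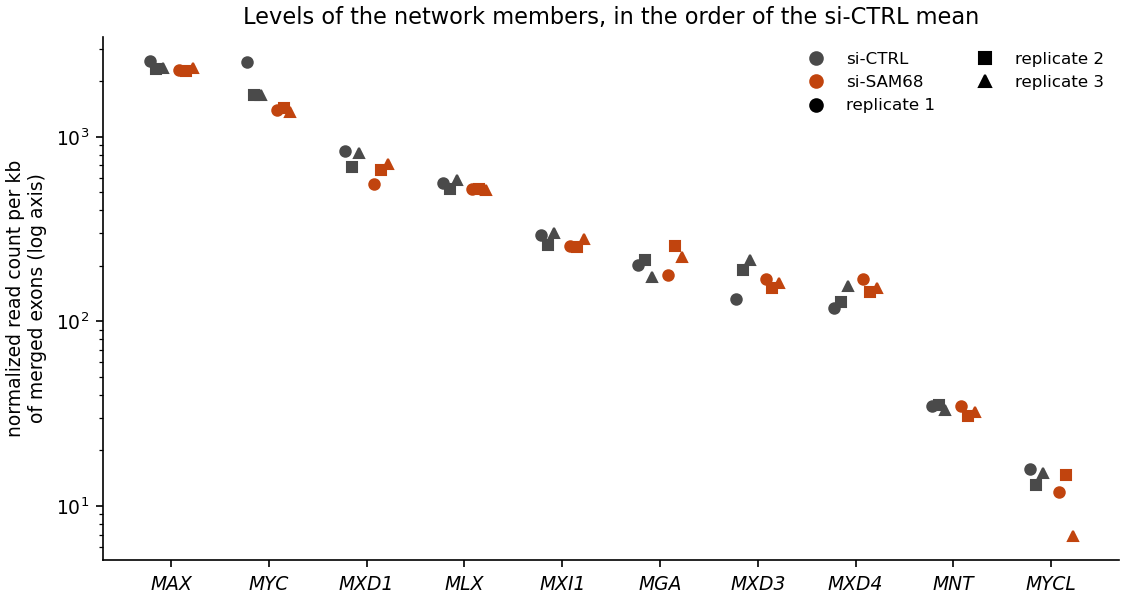
Normalized read count per kb of merged exons for each member in the 6 libraries, on a log axis and in the order of the si-CTRL mean. MAX, MYC and MXD1 lead in both groups, and MNT and MYCL are lowest.

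The balance of activator and antagonists was described by ratios of these per kb levels within a library. MYC over MAX was 0.981, 0.724 and 0.714 in si-CTRL and 0.606, 0.623 and 0.575 in si-SAM68. These groups did not overlap, with means of 0.806 ± 0.151 and 0.601 ± 0.0245 (SD, n = 3). MYC over the sum of the 6 antagonists was 1.57, 1.11 and 0.992 in si-CTRL and 1.02, 0.949 and 0.871 in si-SAM68. These overlapped, as si-CTRL replicate 3 was under si-SAM68 replicate 1.

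The sum of the antagonists itself was 1619, 1516 and 1691 per kb in si-CTRL and 1367, 1500 and 1561 in si-SAM68, and overlapped. MXD1 made up 51.6%, 45.3% and 48.2% of that sum in si-CTRL and 40.8%, 44.1% and 45.7% in si-SAM68, with a single overlapping pair of libraries. The ratio to individual antagonists therefore depended on which was chosen. MYC over MXD1 overlapped between the groups, at 3.04, 2.45 and 2.06 against 2.51, 2.15 and 1.91. MYC over MXD4 did not overlap, at 21.5, 13.1 and 10.8 against 8.21, 9.82 and 9.02. MXD1 over MXD4 also did not overlap, at 7.09, 5.35 and 5.26 against 3.28, 4.57 and 4.74. Each of these ratios was highest in si-CTRL replicate 1, and no p is given for them because the genes were chosen with their levels known.

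**Figure D4:**
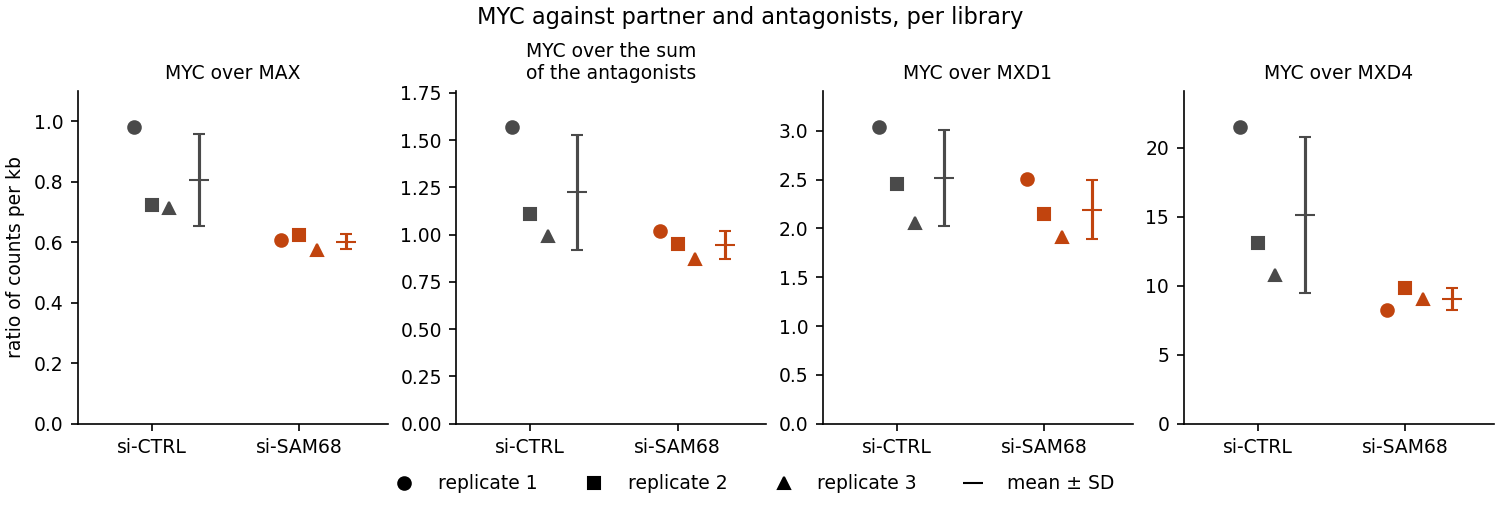
Ratio of the per kb level of MYC to that of MAX, of the summed antagonists, of MXD1 and of MXD4 in each library, with linear axes from 0; symbols are replicates and bars mean ± SD (n = 3). The groups do not overlap for MAX and MXD4, and they overlap for the sum and for MXD1.

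The loci whose pattern over the 6 libraries was most like that of MYC, among 12927 loci with a symbol and a mean of at least 50, were GRIPAP1 (Pearson r = 0.998), CPSF6 (r = 0.997) and GOSR2 (r = 0.997). CPSF6, a subunit of the cleavage factor that selects polyadenylation sites, was at 9786, 8460 and 8589 in si-CTRL and at 7958, 8039 and 7886 in si-SAM68. Because these genes were picked for their likeness to MYC, their place as highest in si-CTRL replicate 1 came with the choice. In all, 398 loci reached r = 0.95. The points share their libraries and size factors, and the values are a description. Within the network, 4 of 10 members were highest in si-CTRL replicate 1 (MYC, MYCL, MAX and MXD1), beside 27.5% of tested loci.

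The proteins with which the network works were followed as lists of genes. Of 19 coactivators and chromatin partners of MYC, 1 rose, 1 fell and 17 were not called (10.5% called, beside 10.7% of all tested loci), with a median log2 fold change of -0.06. CDK9, the kinase of P-TEFb that releases paused RNA polymerase, was at 2127, 2019 and 1978 in si-CTRL and 1767, 1580 and 1596 in si-SAM68, and fell by 0.31 on the log2 scale (limma adjusted p = 0.0427). SKP2, a ubiquitin ligase subunit that both activates MYC and marks it for degradation, was at 8184, 7838 and 7352 in si-CTRL and 9287, 9244 and 9708 in si-SAM68. It rose by 0.27 on the log2 scale (limma adjusted p = 0.0418). Neither group overlapped the other in CDK9 or SKP2. With the replicate block the adjusted p was 0.0523 for CDK9 and 0.0677 for SKP2 (limma).

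Of 18 genes of MYC protein turnover, SKP2 again rose and FBXL14, another ubiquitin ligase subunit, fell by 0.37 on the log2 scale (limma adjusted p = 0.0336, and 0.0602 with the block), whereas 16 were not called (11.1% called, beside 10.7% of all tested loci). Without each si-CTRL library other than replicate 1 and without each si-SAM68 library, 0 genes of this list were called. The same settings left 0 of the coactivators called. Over all tested loci 627 to 1607 were called in these settings, against 2017 with all 6 libraries. The MYC protein itself was not measured by these libraries.

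Of 22 genes of SIN3 and NCOR complexes, the corepressors of MXD proteins and MNT, 3 fell and 19 were not called (13.6% called, beside 10.7% of all tested loci, median -0.01). SAP30L, a SIN3 subunit, had the largest difference, from 889.9, 849.4 and 908.8 in si-CTRL to 432.2, 489.4 and 511.6 in si-SAM68. It fell by 0.89 on the log2 scale (limma adjusted p = 0.00101), and the groups were far apart. SAP130, another SIN3 subunit, fell by 0.45 (limma adjusted p = 0.0357, and 0.0515 with the block). Only 1 gene of the list was called without any single si-SAM68 library. Of 14 genes of PRC1.6, the complex of MGA, 1 fell and 13 were not called, MGA and MAX among them, with a median of 0.11. That is 7.14% called, beside 10.7% of all tested loci. TFDP1, a dimer partner of E2F factors, was the 1 that fell, by 0.33 (limma adjusted p = 0.0196). TFDP1 was not called without si-CTRL replicate 2 or 3 or without si-SAM68 replicate 2 or 3.

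Targets of the network were described with textbook lists. Of 82 genes induced by MYC, 81 were tested, and 7 fell, 1 rose and 73 were not called (9.88% called, median -0.08, beside 10.7% called and a median of 0.005 over all tested loci). The fold change was below 0 in 56 and above 0 in 25. In 30 of the 81 (37%) every si-SAM68 library was under every si-CTRL library, beside 17.3% of tested loci. In si-CTRL replicate 1, 31 of the 81 (38.3%) were highest, beside 27.5% of tested loci. The number called was 18 without si-CTRL replicate 1, and 2 without si-CTRL replicate 3 or without any single si-SAM68 library. Counts over all tested loci moved the same way, from 2017 to 2834 without si-CTRL replicate 1 and to 1108 without its replicate 3. Without a single si-SAM68 library they were 627 to 921. The count of the list thus depended on the libraries kept, as did that of all loci. DESeq2 called 17 of the list and 2811 of all tested loci.

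MTHFD2, a mitochondrial folate enzyme, had the largest difference among the induced genes. It was at 10592, 10627 and 10655 in si-CTRL and at 5276, 5534 and 5237 in si-SAM68, and fell by 0.99 on the log2 scale (limma adjusted p = 0.000107). The groups were narrow and far apart. TERT, the catalytic subunit of telomerase, fell by 0.86 (limma adjusted p = 0.0139), RPIA of the pentose phosphate pathway fell by 0.61 (limma adjusted p = 0.0348), and MCM5 of the replicative helicase fell by 0.37 (limma adjusted p = 0.0242). ODC1, the ornithine decarboxylase that starts polyamine synthesis and a classical MYC target, was at 33597, 29852 and 34199 in si-CTRL and 23596, 25935 and 27082 in si-SAM68. It fell by 0.35 (SE 0.085, limma adjusted p = 0.0298). TFAM, which maintains mitochondrial DNA, went the other way, from 11363, 14952 and 14672 to 17733, 18515 and 21454, and rose by 0.50 (limma adjusted p = 0.0255). MTHFD2 was called whichever library was left out, whereas TERT lost its call in 2 of these 6 settings, TFAM and MCM5 in 3, ODC1 in 4 and RPIA in 5.

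The promoter of ODC1 is shown because 1 of its 2 listed start sites has a pair of E-boxes close by, on the minus strand, and that of PFKFB3, described next, because 1 of its 2 listed start sites has 1.
ODC1, box at -29: gggccccgggCACGTGtgcggcgcgc
ODC1, box at 5: cctgcggagaCACGTGgtcgccgagc
PFKFB3, box at -108: ccctcctcccCACGTGgaagggggct
The windows are chr2:10448026-10448051, chr2:10447992-10448017 and, on the plus strand, chr10:6202814-6202839 (GRCh38.p14). CACGTG was present in 34 of 67 induced genes with an entry (50.7%), and in 2 of the 6 of them that were called lower. Over all tested loci it was in 12.5% of 837 genes called lower and 8.86% of 542 called higher, beside 12.3% of genes at tested loci. Of 5 glucose-responsive MLX targets with an entry, 4 (80%) had the motif, PFKFB3 and the uncalled ARRDC4, HK2 and PKLR. TXNIP, the target that rose, had none. A relation of the boxes to the changes was not tested.

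Of 22 genes that MYC represses, 21 were tested, 2 fell, 1 rose and 18 were not called (14.3% called, beside 10.7% of all tested loci, median 0.03). CDKN1A, the cell cycle inhibitor p21, was at 6000, 5526 and 5967 in si-CTRL and 3472, 3554 and 3599 in si-SAM68, and fell by 0.72 (limma adjusted p = 0.000686). NDRG1, a stress response gene, fell by 0.95 (limma adjusted p = 0.00638). CDKN1C, the inhibitor p57, rose by 0.58 (limma adjusted p = 0.0475, and 0.07 with the block). CDKN1A and NDRG1 were called whichever library was left out, and CDKN1C lost its call in 5 of 6 settings. MXD4, itself a member of the network, belongs to this list and was not called.

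Of 6 glucose-responsive targets of MLX with MLXIP or MLXIPL, 5 were tested, 1 rose, 1 fell and 3 were not called (40% called, on 2 of 5 genes, beside 10.7% of all tested loci, median -0.02). TXNIP, an inhibitor of glucose uptake, was at 8969, 8667 and 8589 in si-CTRL and 12641, 12477 and 11598 in si-SAM68. It rose by 0.48 (SE 0.0709, limma adjusted p = 0.00344), with groups far apart. ARRDC4, its paralog, was at 488.7, 561.8 and 512.4 against 628.6, 611.7 and 614.4, which did not overlap but was not called (log2 fold change 0.25, limma adjusted p = 0.138). PFKFB3, an activator of glycolysis, was at 2128, 1626 and 1693 against 1082, 1198 and 1095, and fell by 0.68 (limma adjusted p = 0.00619). HK2 (-0.19, limma adjusted p = 0.197) and KLF10 (-0.02, limma adjusted p = 0.966) were not called, and PKLR, at 0 to 3.7, was under the minimum.

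**Figure D5:**
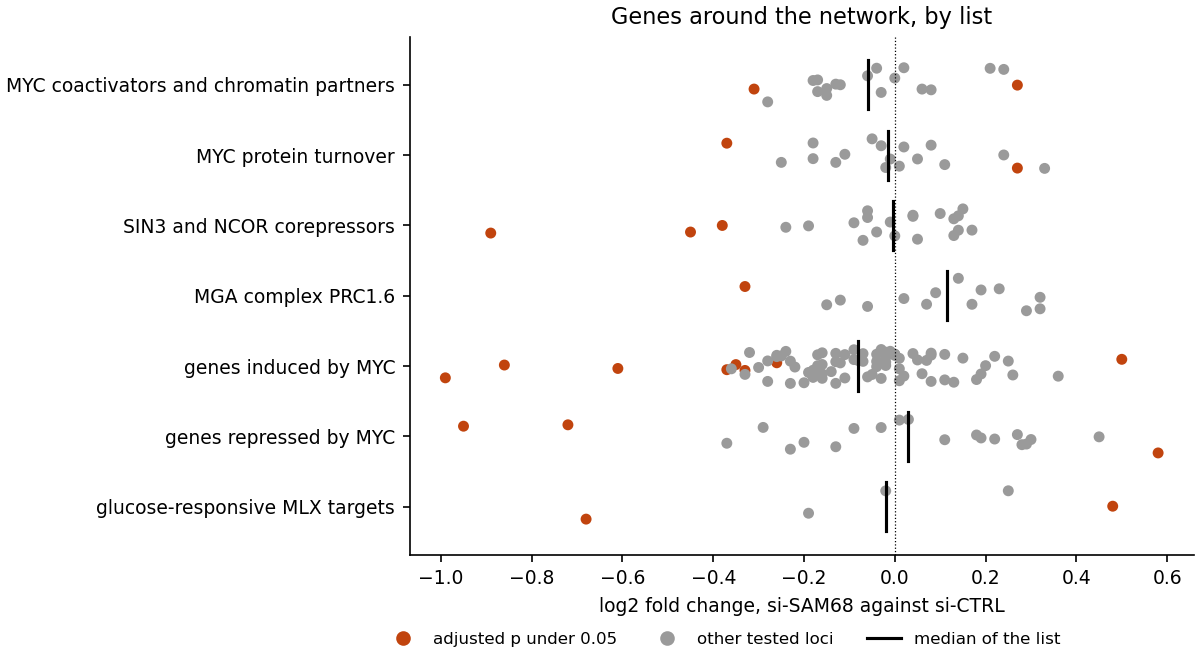
Log2 fold change of each tested gene, si-SAM68 against si-CTRL, in 7 lists around the network; coloured points passed an adjusted p under 0.05 (limma) and black lines are medians. Medians lie between -0.08 (genes induced by MYC) and 0.11 (PRC1.6), and called genes lie on both sides of 0 in 5 of the 7 lists.

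NEK2, KHDRBS1 and 6 other genes of splicing factors were followed beside MYC. Of these 8 genes KHDRBS1, the silenced gene, was the 1 called (12.5%, beside 10.7% of all tested loci). NEK2, the mitotic kinase the study works on, was at 3702, 3323 and 3290 in si-CTRL and 3989, 3708 and 4169 in si-SAM68, with a log2 fold change of 0.20 (limma adjusted p = 0.152) opposite in sign to that of MYC. The splicing factors were PTBP1 (-0.21, limma adjusted p = 0.0783, on a locus that joins MIR4745), QKI (-0.30, 0.134), HNRNPL (0.05, 0.743), SRSF1 (0.03, 0.819), HNRNPA1 (0.04, 0.772) and HNRNPA2B1 (-0.03, 0.853), given as log2 fold change and adjusted p. Without si-CTRL replicate 1, 3 of the 8 were called, with NEK2 at 0.26 (limma adjusted p = 0.0311) and PTBP1 at -0.21 (limma adjusted p = 0.0349). In that setting 2834 of all loci were called, against 2017 with all 6 libraries. DESeq2 also called PTBP1 (adjusted p = 0.0452).

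Noncoding neighbours of MYC on chromosome 8 did not pass an adjusted p under 0.05 (0 of 4 tested of 6 listed, beside 10.7% of all tested loci). PVT1, a long noncoding RNA next to MYC, was at 2106, 2173 and 2299 in si-CTRL and 2073, 2011 and 2041 in si-SAM68, without overlap (log2 fold change -0.10, limma adjusted p = 0.429). Unlike MYC, PVT1 was not highest in si-CTRL replicate 1. CCAT1, which is transcribed from an enhancer region of MYC, was low, at 38.7, 24.2 and 28.5 against 8.1, 7.4 and 21.2, also without overlap (log2 fold change -1.38, limma adjusted p = 0.0685). It passed the thresholds of the study (unadjusted p = 0.0092, limma, at 0.385 times the si-CTRL level), and was called without si-SAM68 replicate 3 (-1.83, limma adjusted p = 0.0437). CASC11 (0.13, limma adjusted p = 0.827) and CASC8 (-0.03, limma adjusted p = 0.964) overlapped between the groups, CASC8 being called without si-CTRL replicate 1 (-0.41, limma adjusted p = 0.0322), and CASC19 (0 to 3.4) and TMEM75 (2.2 to 11.4) were under the minimum.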

How the data were processed

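RNA of 6 libraries was measured by sequencing. Deposited values are a signal that the authors made from read counts per FAST DB locus (hg19), divided by a DESeq2 size factor per library. The submitters' processing notes also name STAR 2.4.0. Whether strand was used in counting is not given in the sources used here, so antisense or overlapping genes can share reads. All values (100%) were whole multiples of 1 step per library (tolerance 0.01), which gave back the reads. limma 3.58.1 in R 4.3.3 (eBayes with trend) was fitted on log2(value + 1) for loci with a mean of at least 10. On recovered reads edgeR 4.0.16 called 2026 loci and DESeq2 1.42.0 called 2811, against 2017 by limma.

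Conditions and replicate numbers came from the labels. Same-numbered libraries deviated together (r = 0.105, 0.231 and 0.125, against -0.125 to 0.00687 for other numbers), so a replicate block was an alternative. Other alternatives were pseudocounts of 0.1 and 5, filters, scalings, moderation, edgeR, DESeq2 and leaving out each library. On simulated counts (18607 loci, 200 changed by 1 on the log2 scale) limma recovered 151 with 14 false calls. Named genes are the members, KHDRBS1, up to 6 called genes of each list by size of change, all of 4 short lists and the 3 loci most like MYC. Members and lists were chosen with earlier results of these data known. Poisson intervals cover counting error only. A called corepressor gene and a marker of another cell type are not reported here by name.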

Additional observations from a re-analysis of the deposited data

How the results depend on the processing

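The number of members called was 0 under every alternative except DESeq2 (1, MYC, beside 2811 of all tested loci) and the settings with a library left out (0 to 2). MYC had a log2 fold change of -0.50 by DESeq2 and between -0.57 and -0.27 with single libraries left out, and it was called by DESeq2 and without si-CTRL replicate 1 or 2. With the replicate block MYC was at -0.47 and 1697 loci were called, and the block changed the call of no member. The number of loci called was 899 by eBayes without a trend and 627 to 2834 with a library left out, namely 2834 without si-CTRL replicate 1, 1108 without its replicate 3, and 921, 811 and 627 when si-SAM68 replicate 1, 2 or 3 was omitted. Past the thresholds of the study there were 2240 loci with no filter and 1297 to 1825 with a library left out. Signs were reversed by quantile normalization in SRSF1 (-0.01) and CASC8 (0.00), and with a library left out in MXD3 (-0.32 to 0.02), MLXIP (-0.34 to 0.09), MLXIPL (-0.18 to 0.17), HNRNPL (-0.03 to 0.10), HNRNPA2B1 (-0.07 to 0.04), KLF10 (-0.18 to 0.21), CASC11 (-0.11 to 0.29) and CASC8 (-0.41 to 0.24). Apart from the settings with fewer libraries, the cause was not tested. Among the 10 members depth limited MYCL most (31 to 81 reads), whose 95% interval ran from -1.06 to 0.17.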
